A study of Mus musculus with 6 samples.

Results

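The genes described here are NRF2, its inhibitor KEAP1 and known NRF2 targets of antioxidant defence, in mouse liver after knockdown of the long noncoding RNA Hnf1aos1. The 10 members, Nfe2l2 (which encodes NRF2), Keap1, Nqo1, Gclc, Gclm, Hmox1, Srxn1, Txnrd1, Gsr and Prdx1, were chosen by gene symbol from known function, outside the glutathione S-transferase family, and all 10 were found among the 40803 mouse genes of the count table. Livers came from C57BL/6 mice on a normal diet, 3 that had received rAAV8-Scramble and 3 that had received rAAV8-Hnf1aos1, with 1 library per mouse. Per the study's methods the mice were male, about 6 weeks old when 100 µL of virus was injected into the tail vein, and were examined 4 weeks later. The vector, rAAV8, is derived from an adeno-associated virus that infects hepatocytes. The vector of the knockdown group carried a short hairpin RNA against Hnf1aos1 under the U6 promoter, the control vector a scrambled hairpin, and the construct also drives EGFP from the CAG promoter, so both groups carried virus and hairpin and no group without virus was sequenced. The groups are called scramble and knockdown below, and their replicates are numbered 1 to 3.

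NRF2 is a transcription factor that KEAP1 holds in the cytoplasm and passes to a ubiquitin ligase for degradation. When electrophiles or oxidants modify cysteines of KEAP1, NRF2 escapes, enters the nucleus, pairs with a small MAF protein and binds antioxidant response elements near its target genes. The targets make glutathione, reduce thioredoxin, peroxides and quinones, and break down heme, and the control of NRF2 lies largely in the stability of the protein, which RNA counts do not measure.

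Promoter windows were searched for the core of the antioxidant response element, TGACNNNGC on either strand, to show which members hold such letters near an annotated start. The windows are RefSeq's for GRCm38.p6, from 250 bases before to 50 bases after a transcription start. Of the 10 members 7 had a window, 9 windows in all since Txnrd1 has 3. The core stood in 5 of the 9, those of Nfe2l2, Gclm, Srxn1 and Prdx1 and 1 of the 3 of Txnrd1. Keap1 and Nqo1 held none in theirs, and Gclc, Hmox1 and Gsr were not searched. Over all genes 4071 of 32851 windows (12.4%) held the core, so the match is a description of letters and not a site shown to be bound. The stricter form TGACTCAGC, every match of which is also a core match, stood in 149 windows (0.454%), of the members in that of Prdx1 alone. Each line below gives a stretch of the gene's own strand, 5′ to 3′, with the match in capitals.
Nfe2l2, chr2:75704855-75704913, minus strand: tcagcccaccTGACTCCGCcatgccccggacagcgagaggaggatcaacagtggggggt
Gclm, chr3:122245383-122245471, plus strand: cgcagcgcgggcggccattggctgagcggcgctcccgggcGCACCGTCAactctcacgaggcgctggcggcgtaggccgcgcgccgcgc
Srxn1, chr2:152105542-152105570, plus strand: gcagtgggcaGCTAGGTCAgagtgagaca
Txnrd1, chr10:82859074-82859162, plus strand: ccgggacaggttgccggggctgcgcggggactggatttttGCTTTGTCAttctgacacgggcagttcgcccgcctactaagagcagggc
Prdx1, chr4:116685426-116685514, plus strand: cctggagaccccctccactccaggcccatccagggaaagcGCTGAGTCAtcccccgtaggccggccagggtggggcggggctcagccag
Distances are counted along the gene's strand from the transcript start of the window, which is the start of the gene in Nfe2l2, Srxn1 and Prdx1 and a start inside the gene in Gclm (122245557) and Txnrd1 (82859206). In Nfe2l2 the match lies on the gene's strand, and its first base is 240 bases before the start. In Gclm, Txnrd1 and Prdx1 it lies on the opposite strand and begins 134, 92 and 133 bases before that start. In Srxn1 it begins at base 29 of the transcript, counted from 1 at the start, also on the opposite strand. Read on that strand the letters are TGACGGTGC in Gclm, TGACCTAGC in Srxn1, TGACAAAGC in Txnrd1 and TGACTCAGC in Prdx1.

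The mouse gene counts summed to 14704746 to 16532510 per scramble library and 18021614 to 19462398 per knockdown library. A normalized count below is the raw count divided by the library's size after edgeR's TMM scaling, relative to the mean of the 6 sizes. The test between groups was edgeR's quasi-likelihood test on raw counts, with Benjamini-Hochberg adjustment over the 16327 genes that passed a filter on low counts, and a gene is said to be called at an adjusted p under 0.05. Of these genes 1032 (6.32%) were called, 505 (3.09%) higher and 527 (3.23%) lower in the knockdown group, and 352 (2.16%) also had a log2 fold change above 1 or below −1. By the same test 3822 of the 16327 genes had an unadjusted p under 0.05, the background for such counts by edgeR below. Fits without scramble replicate 1, 2 or 3 called 3.74%, 2.34% and 0.619% of the genes, and fits without knockdown replicate 1, 2 or 3 called 3.77%, 1.93% and 11.2%. The split was 319 higher and 729 lower when libraries were scaled by their totals alone, and 3030 higher and 364 lower when scaled by the spiked-in ERCC transcripts, which raised the median of all log2 fold changes by 0.20. Hnf1aos1 itself had normalized counts of 512, 491 and 620.3 across the scramble replicates against 278, 258 and 433 across the knockdown replicates. The groups did not overlap, its log2 fold change was −0.74 (standard error 0.195) and its adjusted p 0.0625, so the targeted RNA was lower in each knockdown library and this test did not call it. DESeq2 (adjusted p = 0.00294), limma's voom (0.0418), edgeR with no filter on low counts (0.00564), edgeR with the replicate number as a block (0.0138) and edgeR without knockdown replicate 3 (0.000261) did call it, over a range of 0.00294 to 0.0878 for the 7 settings that kept all libraries and had no block. Defining markers of hepatocytes, 9 of which are in the table, summed to 1447810 to 1626810 normalized counts among scramble libraries and 1543030 to 1823230 among knockdown libraries, and none of the 9 was called by edgeR or limma's voom (3 had an unadjusted p under 0.05 by each), while DESeq2 called Apoa1 and Apob.

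Among the 10 members, Nfe2l2 fell and no other member was called, while Srxn1 and Txnrd1 had the largest differences upward. By edgeR's test 1 of 10 was called, against 6.32% of all genes, and none with a log2 fold change beyond 1, against 2.16%. An unadjusted p under 0.05 was found for 5 of 10, against 3822 of the 16327 genes tested. The groups did not overlap in 6 of the 10, higher after knockdown in Keap1, Srxn1, Txnrd1 and Prdx1 and lower in Nfe2l2 and Gclm, against 28.9% of all genes tested (15.2% higher, 13.7% lower). An exact two-sided permutation test gave p = 0.1 for each of these 6, the lowest possible with 3 libraries against 3, and 0.3 to 0.6 for Gsr, Gclc, Nqo1 and Hmox1. Groups of 3 that do not overlap always get that lowest p, so it adds nothing to the lack of overlap. The median log2 fold change of the members was 0.23, with 6 above 0, and that of all genes tested was −0.0004. All 10 passed the filter on low counts.

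Levels can be compared between genes only per length, and the deposited TPM values (transcript abundance scaled for length and library) allow that. In the scramble group the peroxiredoxin Prdx1 stood highest with 953 ± 43.3 TPM (SD, n = 3), followed by the catalytic subunit of glutamate-cysteine ligase, Gclc, with 343 ± 24.1 and its modifier subunit Gclm with 181 ± 15.6. Gsr had 82.1 ± 5.91 TPM, Txnrd1 73.6 ± 1.36 and Nfe2l2 69.9 ± 4.98. Hmox1 had 27.8 ± 1.20 TPM, Srxn1 20.2 ± 0.443, Keap1 19.9 ± 0.350 and Nqo1, the lowest, 5.42 ± 0.399. The libraries of Txnrd1 and Nfe2l2 overlapped, as did those of Srxn1 and Keap1, so their order within the scramble group is within the spread between mice, and no other neighbours in the order overlapped.

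By their means in the knockdown group, Prdx1, Gclc and Gclm again held the first places with 1071 ± 75.3, 306 ± 43.7 and 143 ± 6.94 TPM, and Nqo1 was again last with 4.63 ± 0.357. Nfe2l2 stood at 47.2 ± 2.40 TPM, below Gsr (90.8 ± 10.3) and Txnrd1 (99.4 ± 25.2) in every knockdown library. Srxn1 had 200.2, 32.4 and 35.1 TPM in knockdown replicates 1, 2 and 3, so its mean of 89.2 ± 96.1 is set by replicate 1, where it stood above Gclm (136 TPM). Its range covered the levels of Nfe2l2 and Gsr, and the libraries of Gsr and Txnrd1 overlapped. Hmox1 (32.5 ± 11.2) and Keap1 (22.7 ± 1.85) overlapped each other in this group.

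**Figure D1:**
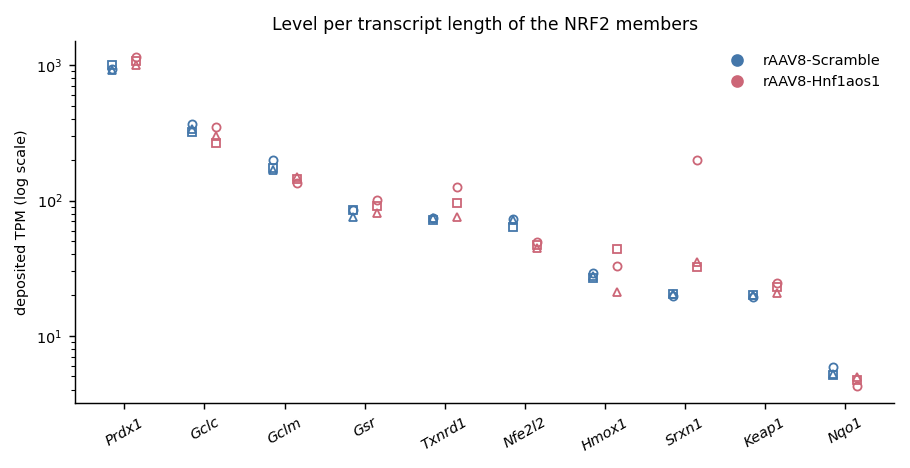
Deposited TPM values (log scale) of the 10 members, ordered by their scramble mean, with 1 point per library, blue for rAAV8-Scramble and red for rAAV8-Hnf1aos1 (circle, square and triangle: replicates 1, 2 and 3). Prdx1 lies near 953 and Nqo1 near 5.42 TPM in the scramble group, and the red circle of Srxn1 at 200.2 TPM stands far above its other points.

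Nfe2l2, the gene of the transcription factor itself (chromosome 2, 75675513 to 75704663, minus strand), had normalized counts of 2170.0, 1921 and 2047 across scramble replicates 1 to 3 against 1477, 1486 and 1408 across knockdown replicates 1 to 3. Each knockdown library lay below each scramble library, and the spread between knockdown mice was small. The means were 2046 ± 125 and 1457 ± 42.6 (SD, n = 3), which leaves 71.2% of the scramble level. This is a log2 fold change of −0.49 with a standard error of 0.0862, and edgeR's adjusted p was 0.0107. Because these are whole livers, fewer cells that express a gene and less of its RNA per cell cannot be told apart, here or for the genes that follow.

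The call of Nfe2l2 held in each of 7 other ways of scaling, filtering or testing, with log2 fold changes from −0.56 to −0.29 and adjusted p from 0.000229 to 0.0420. Those settings called 5.52% (limma's voom) to 20.8% (spike-in scaling) of all genes, with 6.32% for DESeq2's size factors, 6.42% for library totals and 6.93% for a minimum mean of 50 counts. It was lost in 1 of the 6 fits that left out a library, the one without scramble replicate 3 (log2 fold change −0.50, adjusted p = 0.0736 by edgeR), in which 0.619% of all genes were called. On the TPM scale the log2 difference was −0.56. A small nuclear RNA gene, Gm24996, lies within Nfe2l2 on the same strand.

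Keap1, which encodes the adaptor that presents NRF2 for degradation (chromosome 9, 21229730 to 21239332, minus strand), had 675, 705 and 665 normalized counts across the scramble replicates against 854, 846 and 765 across the knockdown replicates. All 3 knockdown libraries lay above the scramble libraries. The means were 682 ± 20.5 and 822 ± 49.1 (SD, n = 3) and the log2 fold change 0.27 (standard error 0.0874), which did not pass the test (edgeR adjusted p = 0.0904). Of 7 other settings only spike-in scaling called it, at 0.47, where the median of all genes was 0.20 (adjusted p of 0.00756 to 0.200 over the 7, edgeR, DESeq2 and limma's voom). On the TPM scale the log2 difference was 0.19 with 0.1 added to each value. The antisense gene Gm16754 overlaps Keap1 on the other strand, and the strand setting of the counting is not given in the sources used here, so reads of the 2 genes may not be told apart.

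Since Nfe2l2 was lower and Keap1 higher in each knockdown library, the ratio of their raw counts within a library, which needs no scaling between libraries, separated the groups. The log2 ratio was 1.68, 1.45 and 1.62 across the scramble replicates against 0.79, 0.81 and 0.88 across the knockdown replicates. All 3 knockdown libraries lay well below the scramble range. The mean was 1.58 ± 0.123 in the scramble group against 0.83 ± 0.0467 in the knockdown group (SD, n = 3), a difference of −0.76 (p = 0.1 by an exact two-sided permutation test, the lowest that 3 libraries against 3 can give). That p is fixed once the groups do not overlap, so it adds nothing to their separation. The ratio is not corrected for transcript length, so only its change between groups has a meaning. In the 6 comparisons without 1 of the libraries the difference lay between −0.83 and −0.71.

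Srxn1 encodes sulfiredoxin, which restores overoxidised peroxiredoxins (chromosome 2, 152105524 to 152111376, plus strand). Its normalized counts were 520.2, 548 and 516 across the scramble replicates against 5318, 914 and 984 across the knockdown replicates. The scramble libraries were close together and all 3 knockdown libraries lay above them, with replicate 1 at 10.1 times the scramble mean and replicates 2 and 3 at 1.73 and 1.86 times. The means were 528 ± 17.3 and 2405 ± 2523 (SD, n = 3), and the log2 fold change of 2.19 (standard error 0.887) did not pass the test (edgeR adjusted p = 0.248). Leaving out knockdown replicate 1 lowered the log2 fold change to 0.84 and its standard error to 0.0947, and Srxn1 was then called (edgeR adjusted p = 0.00141), in a fit that called 3.77% of all genes. It was called in none of the other 5 fits that left out a library (adjusted p up to 0.474, edgeR).

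Knockdown replicate 1 also had the highest count of Spp1, a marker of cholangiocytes, with 2161 normalized counts against 282 to 319 in the scramble libraries and 426 and 513 in knockdown replicates 2 and 3. The 6 cholangiocyte markers summed to 581 to 690.5 normalized counts among scramble libraries and 837 to 2548 among knockdown libraries, and none of the 4 tested was called by edgeR, DESeq2 or limma's voom (0, 1 and 1 at an unadjusted p under 0.05). In knockdown replicate 1, Krt19 had 14.3 and Sox9 279 normalized counts, both within the scramble range, and Epcam 83.9 against 18.5 to 40.7 in the scramble libraries. No marker of the list was at 0 in all libraries, and the part of these cells in the Srxn1 values was not tested.

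Prdx1, a peroxiredoxin that removes hydrogen peroxide with electrons from thioredoxin (chromosome 4, 116685599 to 116700000, plus strand), is the member with the highest TPM. Its normalized counts were 10344, 11111 and 9638 across the scramble replicates against 12650.0, 12551 and 11592 across the knockdown replicates. The groups did not overlap, though the lowest knockdown library was close to the highest scramble library. The means were 10364 ± 737 and 12264.5 ± 584 (SD, n = 3), and the log2 fold change was 0.24 (standard error 0.10, edgeR adjusted p = 0.171). Reads that map to more than 1 place were not counted, so near-identical copies of a gene could lower its count.

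Txnrd1 encodes cytosolic thioredoxin reductase, which keeps thioredoxin reduced with NADPH (chromosome 10, 82833951 to 82897724, plus strand). It had 2302, 2274 and 2235 normalized counts across the scramble replicates against 3942, 3210.0 and 2503 across the knockdown replicates. The scramble mice were almost alike, the knockdown mice spread over a wide range, and none of the knockdown libraries reached down to the scramble values. The means were 2270.5 ± 33.9 and 3218 ± 719.9 (SD, n = 3), and the log2 fold change was 0.50 (standard error 0.142, edgeR adjusted p = 0.0646).

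Txnrd1 lay close to the threshold, and the choice of method decided its call. DESeq2 called it (adjusted p = 0.0161), as it did 7.8% of all genes, and so did edgeR with no filter on low counts (adjusted p = 0.00110, 6.92% of all genes called). Over 7 other settings its adjusted p ran from 0.00110 to 0.118. Without knockdown replicate 3, the knockdown library with the lowest count, its log2 fold change was 0.66 and edgeR called it (adjusted p = 0.00185, 11.2% of all genes called), and without any 1 of the other libraries it was not (adjusted p up to 0.248). Eid3 lies within Txnrd1 on the same strand and Gm38560 and Gm47073 overlap it on the other, so some of its reads may belong to these genes.

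Gsr encodes glutathione reductase, which regenerates glutathione with NADPH (chromosome 8, 33653238 to 33698162, plus strand). Its normalized counts of 1769, 1797 and 1495 across the scramble replicates against 2102, 2013 and 1765 across the knockdown replicates overlapped, knockdown replicate 3 lying just below scramble replicates 1 and 2. The log2 fold change was 0.22 (standard error 0.104, edgeR adjusted p = 0.236). A small nucleolar RNA gene, Gm24727, lies within it on the same strand. Spike-in scaling, under which 20.8% of all genes were called, called Gsr (0.42), Prdx1 (0.44), Txnrd1 (0.70) and Keap1 (0.47) higher and Nfe2l2 lower, 4 higher and 1 lower against 0 higher and 1 lower with TMM. With the shift of 0.20 in the median of all genes taken off, these log2 fold changes are close to those given above.

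**Figure D2:**
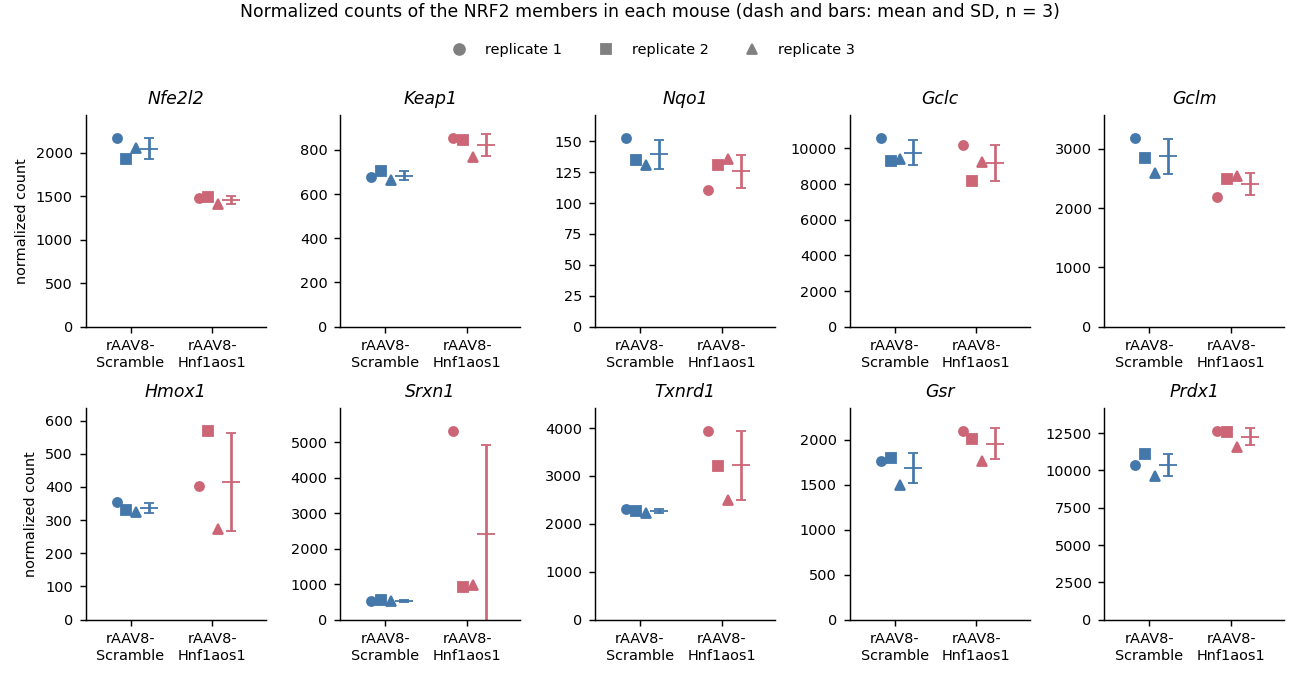
Normalized counts (from 0, linear scale, a scale of its own for each gene) of the 10 members in the 3 rAAV8-Scramble (blue) and 3 rAAV8-Hnf1aos1 (red) libraries, with 1 symbol per replicate, a dash at the mean and bars for the SD (n = 3). The Nfe2l2 points separate downward, 1408 to 1486 against 1921 to 2170.0, and the lower SD bar of Srxn1 after knockdown reaches below 0 and is cut at the axis because replicate 1 had 5318 counts.

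The first step of glutathione synthesis is carried out by glutamate-cysteine ligase, with Gclc as the catalytic and Gclm as the modifier subunit. Gclc (chromosome 9, 77754535 to 77794489, plus strand) had 10598, 9317 and 9383 normalized counts across the scramble replicates against 10178, 8148 and 9217 across the knockdown replicates. The groups overlapped throughout. Its log2 fold change was −0.09 (standard error 0.111, edgeR adjusted p = 0.673), and the sign turned to 0.11 with spike-in scaling.

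Gclm (chromosome 3, 122245487 to 122267215, plus strand) had 3187, 2846 and 2593 normalized counts across the scramble replicates against 2191, 2484 and 2544 across the knockdown replicates. The knockdown libraries all lay below the scramble libraries, but scramble replicate 3 and knockdown replicate 3 differed little. The means were 2875 ± 298 and 2407 ± 189 (SD, n = 3), and the log2 fold change of −0.26 (standard error 0.104) did not pass the test (edgeR adjusted p = 0.163). The log2 ratio of Gclc to Gclm was 1.77 ± 0.0776 in the scramble group against 1.93 ± 0.258 in the knockdown group (SD, n = 3), a difference of 0.16 (exact two-sided permutation test, p = 0.4). Knockdown replicate 1 had the highest ratio, 2.22, and without it the difference was 0.019. The pseudogene Gm6061 lies within Gclm on the same strand, and Gm17494 overlaps it on the other.

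Hmox1 encodes the inducible heme oxygenase (chromosome 8, 75093618 to 75100593, plus strand). Its normalized counts were 355, 329 and 326 across the scramble replicates against 402, 569 and 274 across the knockdown replicates. The scramble libraries were close together, and the knockdown libraries lay on both sides of them, with replicate 2 highest and replicate 3 lowest of all 6. The means were 337 ± 16.0 and 415 ± 148 (SD, n = 3), and the log2 fold change was 0.30 (standard error 0.241, edgeR adjusted p = 0.498). Single libraries set this value: it was 0.53 and called without knockdown replicate 3 (edgeR adjusted p = 0.0286, 11.2% of all genes called) and 0.0097 without knockdown replicate 2 (adjusted p = 0.987).

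Macrophages that clear red cells also express Hmox1, and their markers moved with the groups. Of 12 markers of Kupffer cells and macrophages 12 had a log2 fold change above 0 and 5 were called higher by edgeR (Adgre1, Clec4f, C1qa, C1qb and Lyz2), against 3.09% of all genes, with a median of 0.46. These calls moved with the settings: 2 were left with library totals and 12 were made with spike-in sizes, and 0 in the fits that left out scramble replicate 2, scramble replicate 3 and knockdown replicate 2 (9, 10 and 9 at an unadjusted p under 0.05 by edgeR), 1 without knockdown replicate 1 and 9 without knockdown replicate 3. Their sums lay between 4436 and 5271 normalized counts in the scramble libraries and were 6675, 7204 and 5679 in knockdown replicates 1, 2 and 3, so the knockdown libraries stood in the same order as for Hmox1. None of the 12 was at 0 in all libraries, and the part of these cells in the Hmox1 values was not tested.

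The constitutive heme oxygenase Hmox2 had a log2 fold change of 0.35 (standard error 0.125, edgeR adjusted p = 0.118). The log2 ratio of Hmox1 to Hmox2 within a library was −0.18 ± 0.161 in the scramble group against −0.28 ± 0.318 in the knockdown group (SD, n = 3), a difference of −0.10 (exact two-sided permutation test, p = 0.7). The groups overlapped, and the difference became 0.061 without knockdown replicate 3.

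Nqo1 encodes a quinone reductase that is often read as a marker of NRF2 activity (chromosome 8, 107388225 to 107403205, minus strand). It had 153, 135 and 131 normalized counts across the scramble replicates against 111, 131 and 136 across the knockdown replicates. The groups overlapped, with knockdown replicate 1 lowest. The means were 139.6 ± 11.7 and 126 ± 13.4 (SD, n = 3), and the log2 fold change was −0.15 (standard error 0.148, edgeR adjusted p = 0.581), with a sign that turned to 0.054 under spike-in scaling. It was called in none of the 6 fits without a library and in none of the 7 alternatives.

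**Figure D3:**
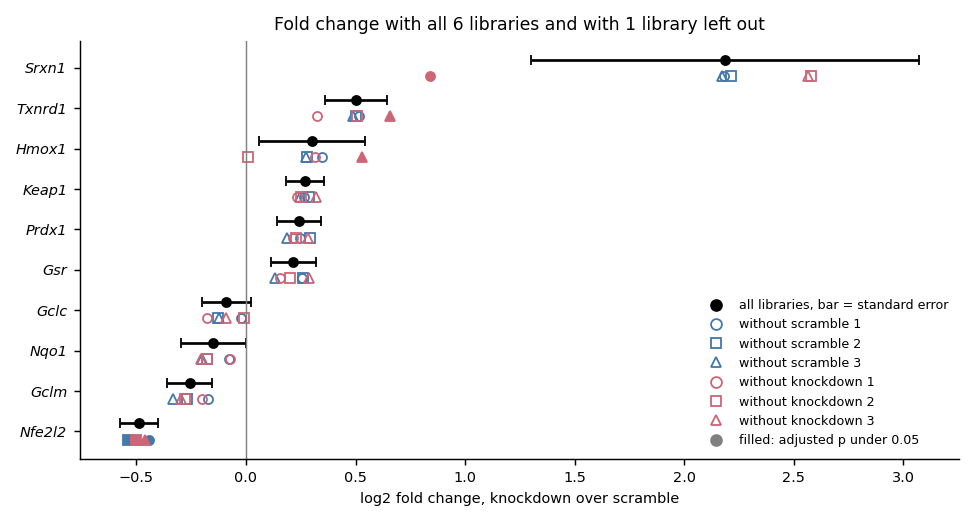
Log2 fold changes, knockdown over scramble, of the 10 members: black points with standard errors for all 6 libraries, and below them the values with 1 library left out (blue: a scramble library, red: a knockdown library, filled where the adjusted p was under 0.05). Nfe2l2 stays between −0.54 and −0.44, while Srxn1 drops from 2.19 to 0.84 without knockdown replicate 1.

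**Figure D4:**
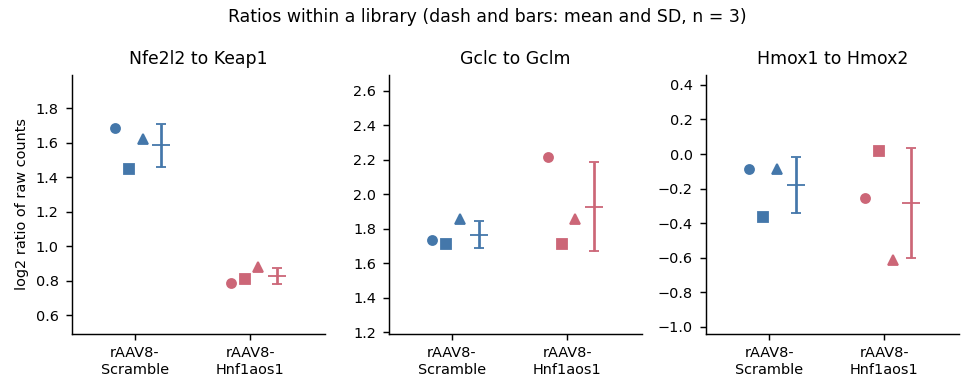
Log2 ratios of raw counts within each library for Nfe2l2 to Keap1, Gclc to Gclm and Hmox1 to Hmox2, on axes of equal length, with 1 symbol per replicate (circle, square, triangle: 1, 2, 3), a dash at the mean and bars for the SD (n = 3). The first ratio is 1.58 in the scramble group against 0.83 in the knockdown group with no overlap, and in the other two the groups overlap.

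The genes with a pattern most like that of Nfe2l2 over the 6 libraries, by the root mean square difference of centred log2 CPM (library-scaled counts) among 12810 genes, were Sec61a2 (0.0367), Slc25a21 (0.0580) and Ctbp2 (0.0590). Sec61a2 had 358, 299.7 and 335 normalized counts across the scramble replicates against 233, 246 and 235 across the knockdown replicates, separated as in Nfe2l2. For Nqo1 the nearest were Lrrc8c (0.0280), Vps25 (0.0320) and Stim2 (0.0364), which likewise had their lowest count in knockdown replicate 1. Genes found by likeness share the order of libraries in part because of that choice.

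Genes that work beside the members were grouped in 8 lists of 96 genes, of which 92 passed the filter and 12 (13.0%, against 6.32% of all genes) were called, 6 higher and 6 lower. The median log2 fold change of the 92 was 0.01. Library totals as scaling gave 3 higher and 6 lower and spike-in scaling 19 higher and 1 lower, while 0 were called without scramble replicate 2 or 3 (23 and 20 at an unadjusted p under 0.05 by edgeR). A fit with the replicate number as a block called 6, and 5.38% of all genes.

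Among 18 regulators of NRF2 edgeR called 3 higher, against 3.09% of all genes, and none lower, against 3.23%, with a list median of 0.04. Mafk, a small MAF protein that pairs with NRF2, had 184 ± 12.5 normalized counts in the scramble group against 283 ± 36.3 in the knockdown group (SD, n = 3), a log2 fold change of 0.62 (standard error 0.129, edgeR adjusted p = 0.0205). Mafg, another small MAF protein, had 1356 ± 81.7 and 1005 ± 280 normalized counts (SD, n = 3), with overlap. Its log2 fold change of −0.43 did not pass the test (edgeR adjusted p = 0.187), and edgeR called it lower without knockdown replicate 3. Fbxw11, a ubiquitin ligase subunit related to the one that marks NRF2 phosphorylated by GSK3, rose by 0.36 (adjusted p = 0.0390), and Dpp3, a protein that competes with NRF2 for KEAP1, by 0.34 (adjusted p = 0.0429). DESeq2 and limma's voom called Mafk and Fbxw11 but not Dpp3. With library totals, a minimum mean of 50 counts or the replicate block edgeR called Mafk alone. Without scramble replicate 1, 2 or 3 or knockdown replicate 1 it called 0 of the 18 (5, 3, 3 and 4 at an unadjusted p under 0.05). Sqstm1, the autophagy adaptor p62 that binds KEAP1 and the most counted gene of the list, had 5522 ± 142 and 6508 ± 339 normalized counts (SD, n = 3) with no overlap, and a log2 fold change of 0.24 that did not pass the test (edgeR adjusted p = 0.145).

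In glutathione synthesis and breakdown 0 of 7 tested genes were called by edgeR, DESeq2 or limma's voom (2 at an unadjusted p under 0.05 by each), with a median log2 fold change of −0.06, while edgeR with no filter on low counts called Chac1 and Gss higher. Slc7a11, the cystine carrier, and Ggt1 were too low to be tested, with at most 7.68 and 4.40 normalized counts in any library. Oplah, which returns oxoproline to glutamate and is the most counted of the list, had a log2 fold change of −0.06 (standard error 0.140).

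Of 8 glutathione peroxidases and glutaredoxins 0 were called by edgeR or limma's voom (2 at an unadjusted p under 0.05 by each), and DESeq2 called 1 lower, the secreted peroxidase Gpx3, named here after its values were seen. Its log2 fold change was −0.86 (standard error 0.245, edgeR adjusted p = 0.0626), and scramble replicate 1 (83.1 normalized counts) lay close to knockdown replicate 1 (83.0). With no filter on low counts, and without scramble replicate 1, edgeR called Gpx3 lower. The list median was 0.18, and Gpx1, the main peroxidase by count, had a log2 fold change of 0.20 (standard error 0.128). Among 18 thioredoxins, peroxiredoxins, methionine sulfoxide reductases and sestrins 0 were called by edgeR, DESeq2 or limma's voom (3, 1 and 3 at an unadjusted p under 0.05), with a median of 0.04 and Prdx6, the most counted, at −0.05. With no filter on low counts edgeR called Txn1 higher. In this list of relatives of Txnrd1 and Prdx1 the values ran from −0.38 to 0.32. Of the 5 genes that remove superoxide and peroxide 0 were called by any of these tools and 0 had an unadjusted p under 0.05, with catalase (Cat) at 51597 ± 4324 and 52096 ± 3658 normalized counts (SD, n = 3).

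NADPH feeds Txnrd1, Gsr and Nqo1. Of 9 genes that supply it edgeR called 2 lower, against 3.23% of all genes, and none higher, against 3.09%, with a median of −0.19. Me1, the cytosolic malic enzyme, which also serves fatty acid synthesis, went from 6031 ± 675 to 3891 ± 522 normalized counts (SD, n = 3), a log2 fold change of −0.63 (standard error 0.122, edgeR adjusted p = 0.0149). The mitochondrial isocitrate dehydrogenase Idh2 had a log2 fold change of −0.45 (adjusted p = 0.0439), and the cytosolic Idh1, the most counted, −0.15 (adjusted p = 0.369 by edgeR). Pgd went the other way, with no overlap and a log2 fold change of 0.35 (edgeR adjusted p = 0.112). It was called higher by edgeR with no filter on low counts, with spike-in sizes and without knockdown replicate 3. The 9 genes together had 18576 to 21192 normalized counts among scramble libraries and 15588 to 16955 among knockdown libraries, so their sums did not overlap.

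In the list of 17 other NRF2 targets edgeR called 2 higher, against 3.09% of all genes, and 4 lower, against 3.23%, with a median of −0.25. Osgin1, an oxidative stress response gene, rose from 2809 ± 477 to 4880 ± 1023 normalized counts (SD, n = 3), a log2 fold change of 0.80 (standard error 0.170, edgeR adjusted p = 0.0307). The carbonyl reductase Cbr3 rose by 1.60 (standard error 0.378, adjusted p = 0.0333) at a low level, 5.50 to 11.3 normalized counts among scramble libraries and 22.6 to 33.4 among knockdown libraries. Its relative Cbr1 fell by 0.44 (adjusted p = 0.0398). Ugdh had 3188 ± 388 and 4595 ± 1044 normalized counts (SD, n = 3) with no overlap and a log2 fold change of 0.53 (edgeR adjusted p = 0.0839). DESeq2 called it higher, and so did edgeR with no filter on low counts, with spike-in sizes and without knockdown replicate 3. With the replicate number as a block edgeR called Ugdh and Cbr3 and no other gene of this list.

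The export pumps Abcc2 and Abcc4 fell by 0.47 and 0.67 (edgeR adjusted p = 0.0353 and 0.0432). Abcc2, the canalicular carrier of conjugates, had 14652 ± 821 normalized counts in the scramble group against 10555 ± 1324 in the knockdown group (SD, n = 3). Aldehyde oxidase Aox1 fell by 0.58 (adjusted p = 0.0421), with 4177 ± 159 and 2787 ± 605 normalized counts. Ferritin light chain Ftl1, the most counted of the list, had a log2 fold change of 0.17 (standard error 0.120) with overlap.

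Of 10 genes of heme turnover, the process that Hmox1 serves, edgeR called 1 higher, against 3.09% of all genes, and none lower, against 3.23%. The list median was 0.15. That gene was Hpx, hemopexin, a plasma protein that binds heme and is also made in the acute phase response, with 27804, 27172 and 25371 normalized counts across the scramble replicates against 53746, 71026 and 35842 across the knockdown replicates. All knockdown libraries lay above the scramble libraries, replicate 2 highest and replicate 3 lowest as for Hmox1. Its log2 fold change was 1.00 (standard error 0.217, edgeR adjusted p = 0.0361).

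**Figure D5:**
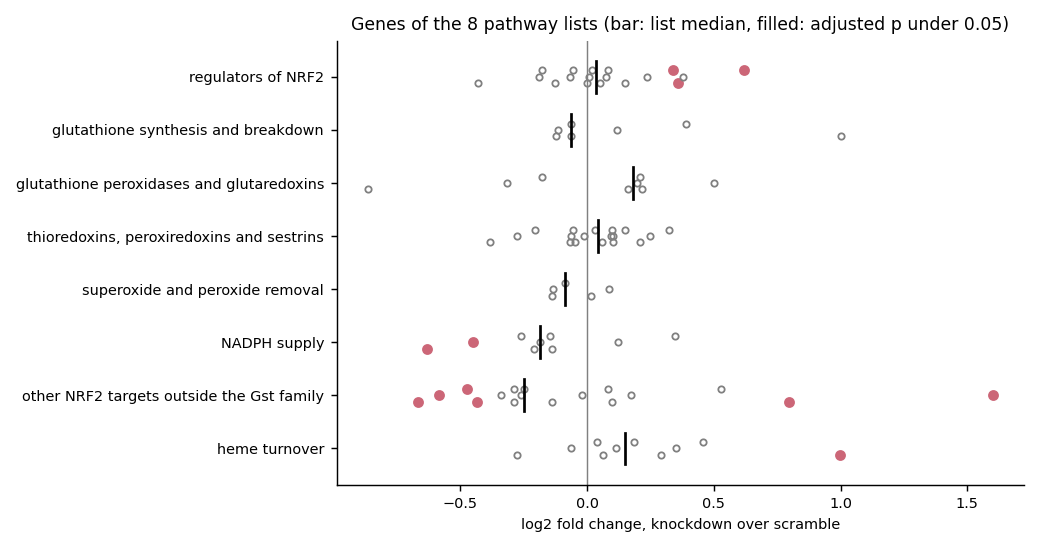
Log2 fold changes, knockdown over scramble, of the tested genes of the 8 pathway lists (points, filled red at an adjusted p under 0.05, spread vertically for legibility) with each list's median as a black bar. Called genes lie on both sides of 0: Cbr3 at 1.60 and Hpx at 1.00 are farthest right, and Abcc4 at −0.67 and Me1 at −0.63 are the called genes farthest left.

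Markers of other liver cell types, summed, did not separate the groups apart from the macrophage and cholangiocyte lists given above. In the cholangiocyte list 1 of the 4 tested markers, Spp1, did not overlap between the groups, while Krt19, Epcam and Sox9 did. The mean of Krt19 after knockdown was 49.4% of its scramble mean, so that list did not move as a whole. Called by edgeR were 0 of 7 sinusoidal endothelial, 0 of 7 stellate, 0 of 3 tested neutrophil and monocyte, 0 of 7 lymphocyte and 0 of 5 erythroid markers (0, 1, 0, 1 and 0 at an unadjusted p under 0.05), and DESeq2 and limma's voom called none of them either. Log2 fold changes below 0 were found, in the same order of lists, for 6 of 7, 7 of 7, 1 of 3, 1 of 7 and 2 of 5 tested markers. The list medians were −0.05, −0.23, 0.44, 0.18 and 0.16, so the stellate list leaned downward as a whole without a call. Of the 7 neutrophil and monocyte markers 4 were too low to be tested. Among them S100a8 had 1.03 to 2.20 normalized counts among scramble libraries and 3.62 to 10.5 among knockdown libraries, S100a9 had 0 to 2.05 and 5.43 to 11.4, and Ly6g was at 0 in all 6 libraries. With no filter on low counts edgeR called S100a9 higher and the stellate marker Des lower.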

How the data were processed

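Liver RNA-seq of 3 rAAV8-Scramble and 3 rAAV8-Hnf1aos1 mice was read from gene tables; groups follow the sample titles. Per the study's methods the authors trimmed reads with Trimmomatic, mapped them to GRCm38 (STAR) and counted the unique, exonic ones per gene (featureCounts), the deposited raw counts. The submitters' processing notes name GRCm39, the tables hold no coordinates, and the annotation release is not given in the sources used here. The methods describe poly(A) selection in a stranded kit, the labels ribosomal RNA depletion. The authors also deposited TPM values, whose computation is not described. The deposited normalized counts and the authors' comparison (log2 fold changes, p-values and adjusted p-values) were not used.

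The 92 ERCC rows, 1.46% of counts in the scramble group against 1.21% in the knockdown group, stayed out of library sizes and tests. In R 4.3.3, edgeR 4.0.16 was run with TMM, filterByExpr, robust quasi-likelihood fits and the group as the only term; the biological coefficient of variation was 13.9%. Ratios were tested by exact permutation. Alternatives were DESeq2 1.42.0, its size factors, library totals, spike-in sizes, no filter, a mean of at least 50 counts, voom (limma 3.58.1), a replicate block, a log2 limit of 1, TPM with 0.1 or 1 added, 0.5 counts added to ratios, and each library left out. Named genes are the members, Hnf1aos1, list genes that were called or most counted, and the 3 nearest patterns of Nfe2l2 and Nqo1, with Hmox2 from its planned ratio. Slc7a11, Ggt1, Gpx3, Chac1, Gss, Txn1, Mafg, Pgd, Ugdh, the cell type markers named singly and the genes nearest to Srxn1, Txnrd1 and Hmox1 were chosen after their values were seen. Members and lists were chosen with earlier results of these data known. Positions and windows are RefSeq's for GRCm38.p6, by symbol (91.9% of the 40803 matched), and overlapping genes are GENCODE M21's. Fits were tested on simulated data. A chi-square statistic between replicates was 7.69 to 31.7 per gene (about 1 from sampling alone), so no library is a repeat. At these depths differences between mice limit precision. The labels give no batch. Figures used matplotlib 3.10.9.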

Additional observations from a re-analysis of the deposited data

How the results depend on the processing

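Nfe2l2 stayed called under the other tests, scalings and filters, and lost its call without scramble replicate 3 and with the log2 limit of 1. Of 1032 genes called, spike-in sizes gave 3394 (89.3% higher against 48.9%), no filter 1902 and a log2 limit of 1 gave 352, and leaving out 1 library gave 103 (without scramble replicate 3) to 1881 (without knockdown replicate 3). Members called were 1 with the settings reported, 2 by DESeq2 and 2 with no filter (Nfe2l2 and Txnrd1 in both), 5 with spike-in sizes and 0 with the log2 limit (2.16% of all genes passed it), and 0 to 3 with 1 library left out: 0 without scramble replicate 3, where edgeR gave 4 an unadjusted p under 0.05, 2 without knockdown replicate 1 (Nfe2l2 and Srxn1) and 3 without knockdown replicate 3 (Nfe2l2, Hmox1 and Txnrd1). Of 12 pathway genes called, spike-in sizes gave 20 and leaving out 1 library 0 to 17; without scramble replicate 1 it was 3, without knockdown replicate 1 it was 4 and without knockdown replicate 2 it was 1. The sign turned for Nqo1 (0.054) and Gclc (0.11) with spike-in sizes. It also turned for the ratio of Hmox1 to Hmox2, from −0.10 with all libraries to 0.061 without knockdown replicate 3, with a difference not past any threshold. Without knockdown replicate 2 that ratio's difference was −0.26. With the replicate block 878 genes, 1 member and 6 pathway genes were called, and the ratio of Nfe2l2 to Keap1 kept its difference of −0.76. Over the genes tested, libraries of the same number did not deviate together (correlations −0.0226, 0.0231 and 0.0032). Pairs of different number had correlations from −0.0287 to 0.0272. A factor shared by libraries of the same number in some genes only was not tested. The cause of these changes was not tested. For genes such as Nqo1 and Cbr3 low counts limit the precision as well.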

Other observations

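Srxn1 was one of 4 genes (with Atp6v0d2, Spp1 and Ly6d) whose normalized count in knockdown replicate 1 was more than 4 times that of every other library and above 50, a count made after its values were seen. The other libraries had 0 to 4 such genes, which in knockdown replicate 2 were Lcn2, Saa3, Saa1 and Saa2, all made in the acute phase response. By the measure used for Nfe2l2, also added after the values were seen, the genes nearest to Srxn1 were Spp1 (0.192), Ly6d (0.369), Plet1 (0.436), Krt8 (0.441) and Tubb6 (0.461). The keratin Krt8 had 1546, 1622 and 1656 normalized counts across the scramble replicates against 6990.1, 2340 and 2040 across the knockdown replicates, and its partner Krt18 had 1172, 1151 and 1305 and 5264, 2258 and 1771. Both were higher in all 3 knockdown libraries and highest in replicate 1, as Srxn1 was, and neither was called by edgeR (adjusted p = 0.286 and 0.186). Krt8 was chosen for its likeness to Srxn1, so its shared order is in part set by that choice.

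The genes nearest to Txnrd1 were Phlpp2 (0.0358), Tpd52 (0.0358), Cttn (0.0575), Slc16a1 (0.0588) and Myh9 (0.0618). Of these Tpd52 and Cttn were called by edgeR (log2 fold changes of 0.51 and 0.47, adjusted p = 0.0462 and 0.0439), with the same order of the knockdown libraries, replicate 1 highest and replicate 3 lowest. That order is in part set by the choice of these genes for their likeness to Txnrd1. The gene nearest to Hmox1 was Mad2l1 (0.0566), with 54.4, 47.2 and 52.8 normalized counts across the scramble replicates against 63.9, 87.4 and 43.5 across the knockdown replicates.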
